A study of Mus musculus with 110 samples.

Results

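Off-target junction lists are short tables of V(D)J joins that fell outside the annotated gene segments of the mouse Igh locus. They were chosen by the word offtarget in the sample title, which 12 of the 110 samples carry. Of these, 6 lists came from a CTCF degron line and 4 from its parental line, with 415 junctions each, and a pooled list of 3819 junctions was given for either line and served only as a check. Each junction was read by LAM-HTGTS, a linear-amplification method that sequences outward from a fixed bait, here the JH4 segment, into the prey DNA that was joined to it. All cells were v-Abl transformed pro-B cells, a mouse line arrested at the stage where Igh is assembled, deficient for RAG2 and carrying the Eµ-Bcl2 transgene. They received RAG2 by nucleofection. Both groups had 500 µM of the auxin indole-3-acetic acid (IAA) for 6 h, and then IAA with 3 µM of the Abl inhibitor STI-571 for 4 days. IAA triggers breakdown of a degron-tagged protein in cells that carry OsTIR1. The genotype label of the CTCF degron lists reads WT, against their titles and against the full libraries their reads came from, and the title was followed. No reading of the CTCF protein was used here. Nothing in the labels says that replicates came from separate cultures, so p-values measure only the spread between these samples.

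RAG, the recombinase made of RAG1 and RAG2, cuts DNA beside recombination signal sequences, whose conserved heptamer begins with the bases CAC. From its centre at the JH segments it is thought to scan along chromatin that cohesin extrudes past it, and CTCF-bound elements halt that extrusion. Such an element, IGCR1, lies between Ighd1-1, the last segment of the main D array, and the first VH segment, and normally holds the scan there. Cryptic sites, which hold little more than a CAC, are cut at low levels within the scanned DNA, so that off-target junctions trace where RAG has been.

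Most of the recurrent breaks lay at or within a few bases of heptamer-like letters, and one of the most frequent did not. Merging junctions within 5 bp on the same strand gave 1282 sites, of which 8 occurred in all 10 lists and 1074 in only 1. The sequences below, from the mm9 genome, show 60 bases around the most frequent break of 11 recurrent sites, which are the 8 found in all 10 lists, the constant region site and the leading J segment sites of the Igk light chain. They are given 5′ to 3′ in the direction of the prey read, with 40 bases before the break and the prey's own bases after it. Capitals mark the heptamer-like word nearest in letters to CACTGTG, ending within 5 bases before the break, or to its reverse complement CACAGTG starting within 5 bases of it.
Cryptic site 1008 bp above Ighd1-1, chr12:114721371-114721430, plus strand: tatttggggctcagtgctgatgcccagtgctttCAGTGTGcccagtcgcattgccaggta
Cryptic site 1964 bp above Ighd1-1, chr12:114722327-114722386, plus strand: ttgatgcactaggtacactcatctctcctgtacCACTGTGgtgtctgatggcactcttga
Cryptic site 3625 bp above Ighd1-1, chr12:114723988-114724047, plus strand: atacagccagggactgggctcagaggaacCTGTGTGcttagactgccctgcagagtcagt
Cryptic site 3491 bp above Ighd1-1, chr12:114723854-114723913, plus strand: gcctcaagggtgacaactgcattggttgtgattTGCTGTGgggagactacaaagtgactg
Site adjoining Ighd1-1, 25 bp above it, chr12:114720388-114720447, plus strand: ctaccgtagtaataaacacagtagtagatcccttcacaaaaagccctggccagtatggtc
Site 892 bp from Ighd6-1, chr12:114719234-114719293, plus strand: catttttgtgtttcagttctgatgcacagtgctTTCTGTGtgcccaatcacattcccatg
Site in the exon of Ighd6-1, chr12:114718316-114718375, plus strand: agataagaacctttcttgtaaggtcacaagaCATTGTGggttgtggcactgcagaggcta
Cryptic site 2460 bp from Ighd3-2, chr12:114683925-114683984, plus strand: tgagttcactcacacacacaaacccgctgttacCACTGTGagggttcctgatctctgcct
Site on the constant region side, chr12:114462375-114462434, plus strand: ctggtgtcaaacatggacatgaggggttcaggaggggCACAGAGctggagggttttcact
Site at Igkj1, chr6:70672516-70672575, plus strand: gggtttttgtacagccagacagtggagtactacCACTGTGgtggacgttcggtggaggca
Site at Igkj5, chr6:70673860-70673919, minus strand: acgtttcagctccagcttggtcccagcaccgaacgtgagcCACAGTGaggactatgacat
The sites 1964 bp above Ighd1-1, near Ighd3-2 and at Igkj1 carry all 7 letters of CACTGTG flush with the break, and the site 1008 bp above Ighd1-1 matches 6 of them. The words at the sites 3491 bp above Ighd1-1 and 892 bp from Ighd6-1 match 5, flush with the break. The words at the site 3625 bp above Ighd1-1 and in the exon of Ighd6-1 end 4 and 2 bases before it. The site adjoining Ighd1-1, with 173 junctions over the 10 lists, has no such word in that reach. CAC was counted before breaks on the strand opposite to the prey read, as GTG in the prey's direction. So counted, it lay within 5 bp before the break in 4.35% of this site's junctions that were placed in mm9. The cac shown there, near its break, is on the read's own strand. At the constant region site the word, CACAGAG, spans the break, with its first 3 letters before it. A matching word describes the break and is no proof of a cut by RAG.

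How the lists were drawn sets what they can show. Every listed read was found in the full junction libraries at the same position. The CTCF degron pool is the whole set of junctions outside 170 left-out windows around the V, D and J segments, with a median width of 29 bp, and makes up 2.13% of the line's 179187 junctions with IAA. The lists are equal draws of 415 from 468 to 756 such junctions per CTCF degron replicate and from 1310 to 7267 per parental replicate. A list therefore gives the makeup of the off-target junctions and not how frequent they were. Lists 3, 4, 5 and 6 of the CTCF degron line hold reads of full-library replicates 4, 5, 6 and 3, so that their numbers are only names. All CTCF degron lists came from 1 sequencing run and the parental lists from 2 others. Run, cell line, tag and IAA-driven loss of CTCF therefore cannot be told apart between these lists.

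The main contrast was a move of off-target junctions out of a narrow stretch above Ighd1-1. The interval from Ighd1-1 to the first VH segment, which holds IGCR1, had 59, 78, 55, 90, 85 and 114 of 415 junctions in CTCF degron lists 1 to 6. The parental lists had 312, 327, 293 and 316. The groups did not overlap, and every parental list held more than any CTCF degron list. As a share this was 19.3% ± 5.22 (SD, n = 6) against 75.2% ± 3.41 (SD, n = 4), a difference of -55.9 percentage points (exact permutation of lists, two-sided p = 0.00952, which is the smallest that 6 against 4 can give, and 0.0138 after Benjamini-Hochberg adjustment over 13 measures). Nearly all of the parental junctions of this interval lay within 5 kb of Ighd1-1. That stretch held 55, 57, 50, 76, 63 and 84 junctions in the CTCF degron lists and 311, 323, 292 and 316 in the parental lists. Beyond it, the same interval held 4, 21, 5, 14, 22 and 30 junctions in the CTCF degron lists and 1, 4, 1 and 0 in the parental lists. The part beyond 5 kb thus went the other way from the stretch beside Ighd1-1.

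The VH region, a stretch of V segments that ends 2967 kb from the bait end, was almost empty in the parental lists. It held 18, 36, 41, 23, 52 and 38 junctions in the CTCF degron lists and 0, 2, 2 and 2 in the parental lists. A count of 0 in a list of 415 allows a share of up to 0.723%, for counting error only. The share was 8.35% ± 2.99 (SD, n = 6) against 0.361% ± 0.241 (SD, n = 4; exact permutation p = 0.00952, Benjamini-Hochberg 0.0138). In the CTCF degron lists these junctions ran along the whole region. Of 208 in all, 86 lay in the D-proximal 500 kb, 56 between 500 and 1200 kb, 33 between 1200 and 2000 kb and 33 farther still. Of the 6 parental VH junctions, 5 lay in the proximal 500 kb. Only 28 of the 208 were within 100 bp of the centre of a left-out window. Chosen after its values were seen, a site 646 bp from Ighv11-2 had 1, 3, 4, 1, 2 and 3 junctions in the CTCF degron lists and was at 0 in all 4 parental lists.

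The D array, from Ighd4-1 next to JH to Ighd1-1, held 74, 95, 113, 131, 94 and 130 junctions in the CTCF degron lists and 62, 48, 58 and 46 in the parental lists. The groups did not overlap, at 25.6% ± 5.43 (SD, n = 6) against 12.9% ± 1.86 (SD, n = 4; exact permutation p = 0.00952, Benjamini-Hochberg 0.0138). This contrast rests on recurrent positions: with each position counted once per list, the difference was -0.508 points (exact permutation, Benjamini-Hochberg 0.829). The constant region side, within 250 kb of the bait, held 50, 43, 14, 15, 35 and 28 junctions against 12, 4, 11 and 12, at 7.43% ± 3.53 against 2.35% ± 0.931 (SD, n = 6 and 4; exact permutation, Benjamini-Hochberg 0.0138). Counted once per position this difference was 1.47 points and no longer passed (exact permutation, Benjamini-Hochberg 0.399). The JH side held 0 to 3 junctions in every list, and the rest of chromosome 12 held 4 to 11 in the CTCF degron lists and 1 in each parental list.

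Off-target junctions to other chromosomes made up a larger part of the CTCF degron lists. Outside the Igk light chain locus on chromosome 6, which also rearranges by RAG, they numbered 116, 116, 151, 127, 101 and 68 in the CTCF degron lists and 13, 17, 23 and 20 in the parental lists. The groups were far apart, at 27.3% ± 6.67 against 4.40% ± 1.03 (SD, n = 6 and 4; exact permutation p = 0.00952, Benjamini-Hochberg 0.0138). They fell on 17 to 19 other chromosomes per CTCF degron list and on 8 to 12 per parental list, Igk's chromosome included. A list with more such junctions can reach more chromosomes, so these numbers show no separate difference in breadth. The junctions were scattered: of 691 sites outside Igk, 644 held a single junction and 3 occurred in 3 or more lists. Within Igk the CTCF degron lists held 87, 36, 34, 23, 37 and 30 junctions and the parental lists 13, 15, 27 and 17, with overlap between the groups. The Igk share was 9.92% ± 5.55 against 4.34% ± 1.498 (SD, n = 6 and 4; exact permutation p = 0.0190, Benjamini-Hochberg 0.0248). List 1 stood far above the other CTCF degron lists, and without it the mean difference was 3.37 points in place of 5.58. Without parental list 1, 2 or 4 the Igk difference was 5.18, 5.34 or 5.50 points and no longer passed. With each position counted once the Igk difference was 2.66 points and did not pass either (exact permutation, Benjamini-Hochberg 0.423).

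**Figure D1:**
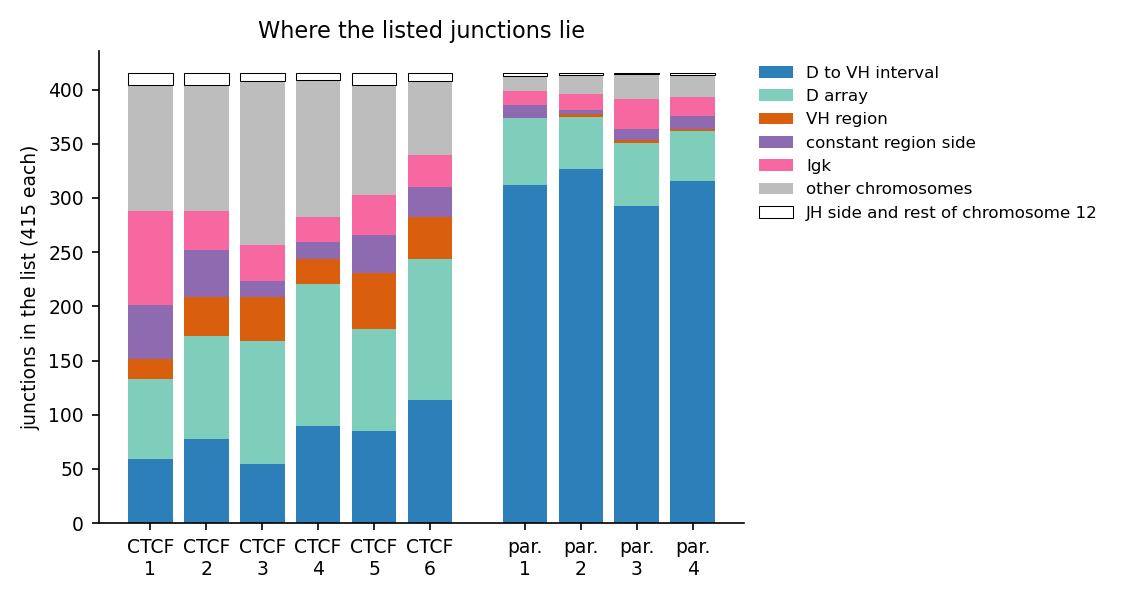
Junctions of each list of 415 (vertical axis) by place, for 6 CTCF degron lists and 4 parental lists (par.), both with IAA. The D to VH interval takes 293 to 327 junctions in the parental lists and 55 to 114 in the CTCF degron lists, where the VH region, the D array and other chromosomes take more.

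The pooled lists, which share reads with the single lists and are no independent sample, gave like values. The D to VH interval took 19.1% of the CTCF degron pool (728 of 3819, 95% Wilson interval 17.8 to 20.3) and 72.9% of the parental pool (2783 of 3819, 71.4 to 74.3). The VH region took 8.43% (7.59 to 9.36) and 0.655% (0.444 to 0.965). These intervals cover counting error only, since reads without molecular identifiers need not be separate molecules.

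Orientation hardly varied. Between JH4 and the last VH segment, 98.0% ± 0.986 (SD, n = 6) of CTCF degron junctions and 99.2% ± 0.495 (SD, n = 4) of parental junctions were in plus orientation, in which the DNA between bait and prey is deleted. Minus-orientation junctions numbered 2 to 6 per CTCF degron list and 1 to 5 per parental list, and the difference did not pass (exact permutation, Benjamini-Hochberg 0.0675). The median distance from the bait end was 61.4 to 63.5 kb in the CTCF degron lists and 64.5 kb in each parental list, a small gap. The left-out window of Ighd1-1 ends at 63.46 kb, and the medians of CTCF degron lists 3 and 4 fell short of it. Those of lists 1, 2, 5 and 6, at 63.464 to 63.468 kb, lay just beyond it. The lower quartile lay at 32.0 to 42.1 kb in the CTCF degron lists and at 63.8 to 64.4 kb in the parental lists, with no overlap. The upper quartile lay at 64.9 to 113 kb and at 65.4 to 66.6 kb, with list 4 of the CTCF degron line below every parental list.

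Along the locus in 10 kb bins, counted from the bait end, 12 bins reached a mean of 2 junctions per list and were tested with limma on log2(junctions + 0.5), of which 9 (75.0%) passed. The CTCF degron lists were higher in 8 bins (66.7% of those tested) and lower in 1 (8.33%). The bin that was lower runs from 60 to 70 kb, holds Ighd1-1 and the stretch above it, and had 65, 80, 78, 103, 78 and 105 junctions in the CTCF degron lists against 328, 342, 320 and 334. Its log2 change was -1.98 (SE 0.23, limma adjusted p = 1.58e-05). Among the higher bins, the lists of the groups did not overlap in 4. They did not overlap in the lower bin either, and overlapped in every other bin of the 12 tested. The bin at 110 to 120 kb, around the stray D segments Ighd3-1 and Ighd5-1, had 3, 15, 5, 5, 13 and 18 junctions against 1, 0, 0 and 0 (log2 3.71, SE 0.54, limma adjusted p = 7.76e-05). The bin at 190 to 200 kb, near the proximal segment Ighv2-3, had 3, 2, 6, 2, 5 and 5 against 0 in all parental lists. The bin at 40 to 50 kb inside the D array had 15, 15, 25, 18, 17 and 26 against 3, 6, 4 and 3 (log2 2.15, SE 0.28, limma adjusted p = 4.05e-05). The bin at -210 to -200 kb, on the constant region side, had 42, 30, 10, 9, 26 and 14 against 4, 1, 6 and 3 (log2 2.45, SE 0.53, limma adjusted p = 0.00165). Of the higher bins, those at 0 to 10 kb, 110 to 120 kb and 190 to 200 kb reached the minimum only through the CTCF degron lists. These bins had to differ, and their calls support nothing further. Since every list sums to 415, a fall in a bin that holds most parental junctions raises the share of every other bin.

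**Figure D2:**
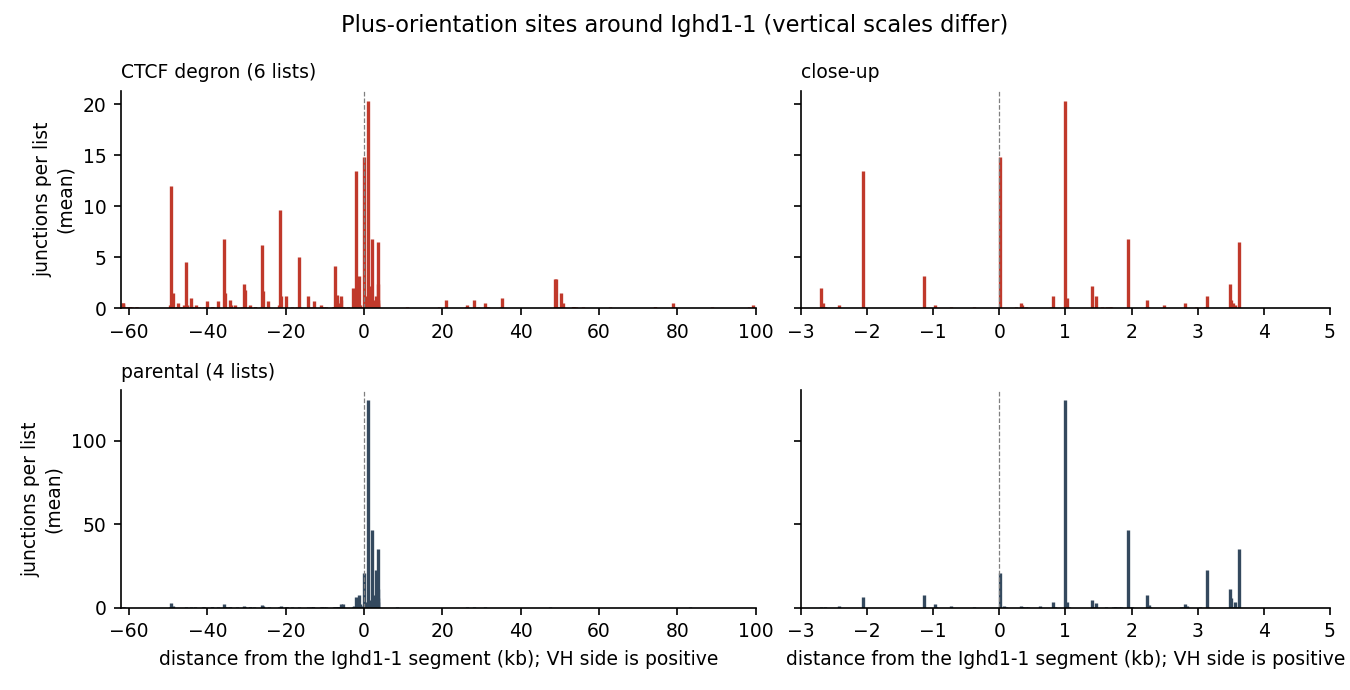
Mean junctions per list at each plus-orientation site (vertical axis) against distance from Ighd1-1 in kb, with a close-up on the right; vertical scales differ between rows. In the parental lists the sites within 5 kb above Ighd1-1 stand far above all others, while the CTCF degron lists spread over the D array and beyond.

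Parental junctions piled up on few positions. The 8 sites found in every list held 56.1 to 63.4% of each parental list and 14.0 to 22.2% of each CTCF degron list, and the lists had 174 to 206 distinct positions against 314 to 342. Single sites were divided around Ighd1-1. Of 23 sites with a mean of at least 2 junctions per list, limma called 18 (78.3%), with 8 higher (34.8%) and 10 lower (43.5%) in the CTCF degron lists. A site that passed this minimum through only 1 group had to differ, so the counts describe these sites and support nothing further. All 10 tested sites above Ighd1-1 had a lower mean in the CTCF degron lists, 9 of them past the threshold, with log2 changes from -4.28 to -1.17 and a median of -2.63, against -0.60 over all 23. Of 9 sites in the D array, 7 were higher and 1 lower, with a median of 2.01.

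The site 1008 bp above Ighd1-1 alone held 124, 125, 118 and 129 of 415 junctions in the parental lists. In the CTCF degron lists it held 10, 16, 19, 31, 18 and 28 (log2 -2.67, SE 0.49, limma adjusted p = 0.000123). It was still the tested site with the highest mean in the CTCF degron lists. The site 1964 bp above Ighd1-1 had 50, 53, 40 and 43 parental junctions and 7, 7, 8, 5, 3 and 11 CTCF degron junctions. The site 3625 bp above it had 33, 31, 29 and 47 against 12, 1, 11, 6, 1 and 8. The largest log2 change belonged to a site 3141 bp above Ighd1-1, with 18, 28, 23 and 22 parental junctions and 0, 2, 0, 2, 0 and 3 CTCF degron junctions (log2 -4.28, SE 0.63, limma adjusted p = 2.25e-05). None of these sites overlapped between the groups. In mm9 the 10 kb above Ighd1-1 hold 1 match to the core of the CTCF binding motif, searched on both strands. It lies on the minus strand, 3078 bp above Ighd1-1, and 59.8% of the 10 kb windows of chromosome 12 hold such a match.

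Below Ighd1-1 the picture turned within a short distance. A site 892 bp from Ighd6-1, on its Ighd1-1 side, still fell, with 9, 7, 6 and 8 parental and 3, 4, 3, 2, 2 and 5 CTCF degron junctions. The site in the exon of Ighd6-1, a D segment with an irregular signal, had 5, 6, 10 and 4 parental and 5, 15, 23, 16, 10 and 12 CTCF degron junctions (log2 0.99, SE 0.53, limma adjusted p = 0.0872). The site near Ighd3-2 had 3, 3, 1 and 5 against 4, 10, 12, 18, 13 and 15 (log2 1.86, SE 0.54, limma adjusted p = 0.00500). The D array site at 42.1 kb from the bait end rose most, with 1, 2, 0 and 0 against 8, 8, 10, 10, 8 and 14 (log2 3.34, SE 0.55, limma adjusted p = 5.05e-05). Its prey sequence matches mm9 at Ighd5-7, and so do those of the sites at 27.8, 32.8 and 37.4 kb. The D array is made of near-identical repeats, and reads may be split among these copies. The site that adjoins Ighd1-1 itself had 16, 17, 5, 8, 31 and 12 CTCF degron and 29, 28, 15 and 12 parental junctions, with overlap and no call (limma adjusted p = 0.301).

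**Figure D3:**
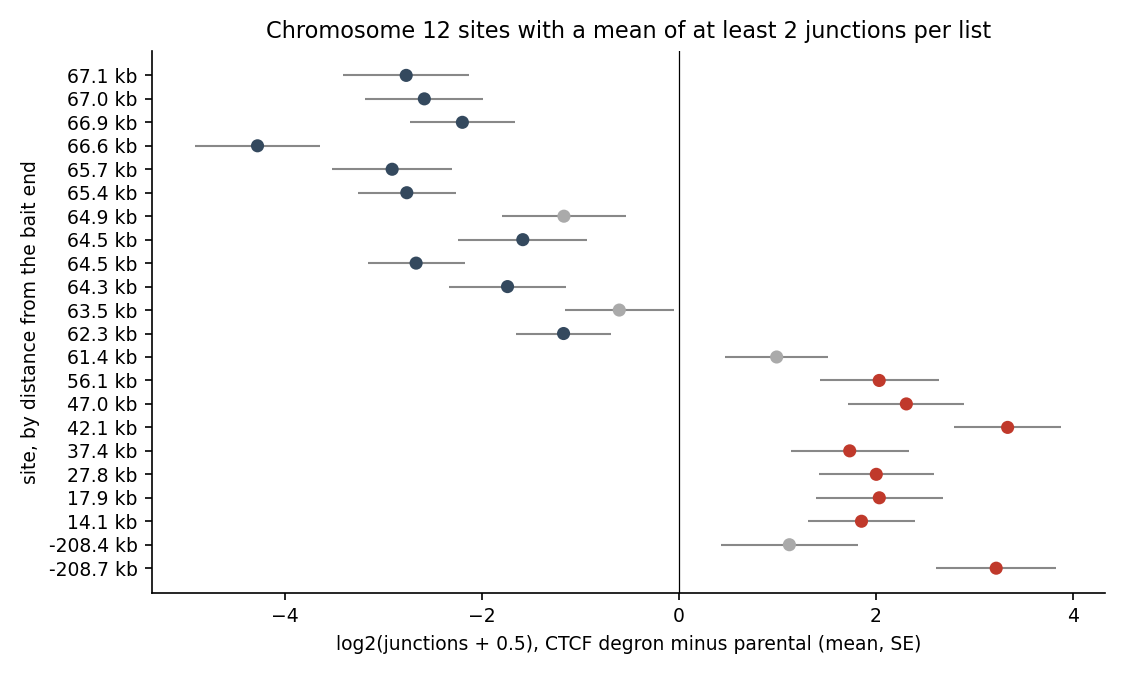
Difference between CTCF degron and parental lists in log2(junctions + 0.5) for 22 tested chromosome 12 sites, ordered by distance from the bait end; points are means, bars are SE, and grey points did not pass. Sites at 64.3 kb and beyond, above Ighd1-1, lie to the left of 0, and those from 14.1 to 61.4 kb lie to the right.

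The constant region site, at -209 kb from the bait end and 9952 bp from the nearest annotated gene, a U6 RNA, had 33, 21, 7, 7, 20 and 13 junctions in the CTCF degron lists and 1, 0, 3 and 2 in the parental lists (log2 3.22, SE 0.61, limma adjusted p = 0.000139). Of the Igk sites, 3 of the most recurrent lay at J segments of the light chain. The site at Igkj5 had 11, 1, 2, 0, 1 and 2 CTCF degron and 0, 3, 1 and 1 parental junctions, and the one at Igkj1 had 6, 1, 2, 1, 0 and 0 against 0, 1, 3 and 1. The site at Igkj4 had 9, 2, 0, 0, 0 and 1 against 2, 0, 3 and 2. List 1 was the highest at all 3. A site in 7 lists that lay at no J segment, 50680 bp from Igkv4-78, had 1, 1, 1, 0, 1 and 2 CTCF degron and 0, 2, 1 and 0 parental junctions. A site in the exon of Igkv1-135 occurred in 5 CTCF degron lists, with 0, 2, 3, 2, 4 and 1 junctions, and was at 0 in the 4 parental lists.

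The letters at the break separated the places from one another. Here too a CAC before the break is one on the strand opposite to the prey read, seen as GTG in the prey's direction. In the 99474 positions between JH4 and the last D segment, a CAC lies within 5 bp before 10.2% of possible breaks. Among the CTCF degron junctions that could be placed in mm9, it lay there in 70.5% of 359 in the D array, 66.8% of 383 in the D to VH interval and 52.4% of 126 in the VH region. The parental values were 80.8% of 146 in the D array and 79.6% of 1016 in the interval. Igk junctions had it in 80.6% and 69.4%. On other chromosomes it was found in 10.8% of 679 CTCF degron and 10.96% of 73 parental junctions. These values are close to the 10.2% between JH4 and the last D segment, which was taken in plus orientation only. No such level was computed for other chromosomes. The constant region side had 4.86% and 2.56%. At its recurrent site the CACAGAG stands on the strand of the prey read, so its CAC does not enter this count. Over whole lists the share was 42.5% ± 6.77 (SD, n = 6) in CTCF degron and 72.6% ± 2.0 (SD, n = 4) in parental lists (exact permutation p = 0.00952, Benjamini-Hochberg 0.0127 over 4 measures). Within the D array and within the D to VH interval the difference did not pass (exact permutation, Benjamini-Hochberg 0.109 each). At Igk it went the other way, at 81.0% ± 3.99 in CTCF degron and 69.0% ± 5.13 in parental lists (SD, n = 6 and 4; exact permutation, Benjamini-Hochberg 0.0476).

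The joints themselves differed in the same way. A junction has microhomology where bait and prey share bases, and an insertion where bases stand between them. In all 10 lists, junctions to other chromosomes had more microhomology than those from the D array to the VH region, at 61.5 to 85.3% against 1.92 to 10.4%. Their bait end was also cut back by more than 20 bp from the JH4 coding end in 60.9 to 84.6% of cases, against 3.12 to 8.23%. Junctions in the D to VH interval mostly carried insertions, in 94.2% of 481 CTCF degron and 95.9% of 1248 parental cases, with median lengths of 12 and 13 bases. At least 7 bases of an annotated D segment stood in 48.0% and 59.1% of these junctions, as in a VH to DJH join, and in 45.2% of the 208 CTCF degron junctions of the VH region. In the D array the share was lower in the CTCF degron lists, at 15.5% ± 4.72 against 36.0% ± 12.1 (SD, n = 6 and 4; exact permutation, Benjamini-Hochberg 0.0476 over 20 tests). Over whole lists, microhomology rose from 7.11% ± 1.37 (SD, n = 4) in parental to 29.4% ± 4.95 (SD, n = 6) in CTCF degron lists (exact permutation p = 0.00952, Benjamini-Hochberg 0.00952 over 5 measures). Insertions went from 89.6% ± 2.76 to 64.0% ± 5.25, and blunt joints from 3.31% ± 1.53 to 6.63% ± 1.40. Within the other-chromosome junctions alone, microhomology was 79.1% ± 4.93 in CTCF degron and 65.6% ± 3.74 in parental lists (SD, n = 6 and 4, exact permutation, Benjamini-Hochberg 0.0476). Its difference did not pass within the D array, the D to VH interval, Igk or the constant region side (exact permutation, Benjamini-Hochberg 0.0762, 0.294, 0.724 and 0.333).

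**Figure D4:**
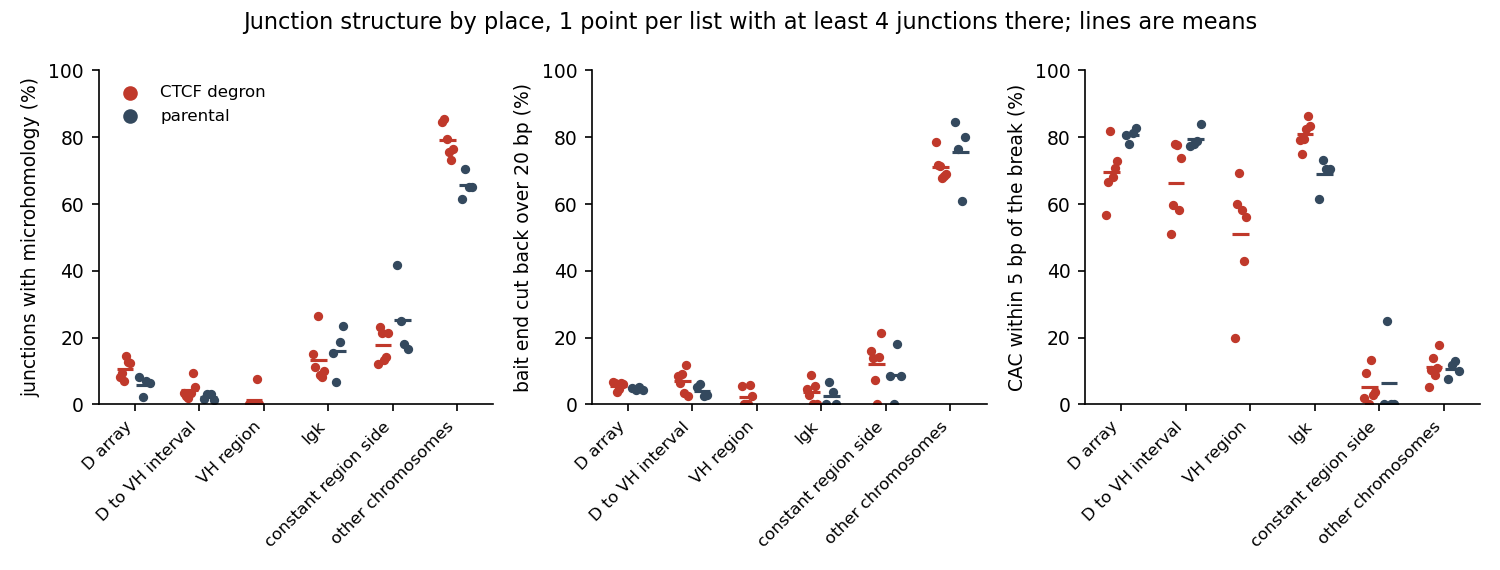
Share of junctions (percent, vertical axes) with microhomology, with the bait end cut back by over 20 bp, and with a CAC (GTG in the prey's direction) within 5 bp before the break, by place. Each point is a list with at least 4 junctions there and lines are means over lists; other chromosomes stand above every other place in microhomology and bait cut-back in both groups, and lie low in CAC together with the constant region side.

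Because equal draws carry no frequency, off-target junctions were also taken from the full libraries as those over 100 bp from the centre of any left-out window. Here the untreated CTCF degron line, sequenced in the same run, could be set beside the treated one, with 6 replicates each. The off-target rate was 2.10% ± 0.525 (SD, n = 6) of all junctions in untreated cells and 2.03% ± 0.534 (SD, n = 6) after IAA, which did not pass (p = 0.816 by exact permutation). With IAA, the parental line had 3.14% ± 0.374 (SD, n = 4), which was higher than the CTCF degron line but did not pass (exact permutation p = 0.0286, Benjamini-Hochberg 0.0844 over 65 tests). With identical junctions counted once the measure is another, the off-target share of distinct positions, and is not on the scale of these rates. It differed by -7.40 points from untreated cells and by -19.2 points from the parental line, both past the threshold (exact permutation, Benjamini-Hochberg 0.0281 and 0.0442). Replicates held 21416 to 35133 junctions in the treated CTCF degron line, 26375 to 58885 in the untreated one and 42463 to 194109 in the treated parental line. An effect of this depth on the share of distinct positions was not tested. The rates by place moved in opposite directions.

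In the D to VH interval the rate fell from 1.10% ± 0.264 of all junctions without IAA to 0.332% ± 0.0867 with it (SD over 6 replicates, with an exact permutation p of 0.00216 and 0.0234 after adjustment). In the VH region it rose from 0.0207% ± 0.0101 to 0.156% ± 0.0320 (exact permutation p = 0.00216, Benjamini-Hochberg 0.0234). On other chromosomes without Igk it rose from 0.177% ± 0.0653 to 0.591% ± 0.207 (exact permutation p = 0.00216, Benjamini-Hochberg 0.0234). Replicates did not overlap in any of the 3. The D array rate was 0.513% ± 0.110 with IAA and 0.443% ± 0.158 without, which did not pass (exact permutation p = 0.390). The parental line with IAA had 0.449% ± 0.0399 in the D array, so the larger D array share in the lists went with a rate that was not told apart from the parental one (exact permutation p = 0.314). The Igk rate and the constant region side rate did not pass in either comparison. Counted as shares of the off-target junctions, the D to VH interval took 16.9% ± 4.47 with IAA and 52.4% ± 6.99 without, against 73.6% ± 2.09 in the parental line with IAA.

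The control lines were the parental line, one carrying OsTIR1 alone and one carrying the tag on CTCF alone. In these lines no rate or share could pass between treated and untreated replicates. The smallest p of an exact permutation over 4 against 4 is 0.0286, which gave 0.0844 after adjustment. That none passed therefore does not show that IAA left these lines unchanged. The parental values moved the other way from the CTCF degron line: its D to VH interval rate was 1.51% ± 0.111 without and 2.31% ± 0.262 with IAA (SD, n = 4 each), with no overlap. The D to VH interval share changed by 7.78, 6.27 and 4.66 points with IAA in the 3 control lines, in that order, against -35.6 points in the CTCF degron line. The difference between lines was -43.4, -41.8 and -40.2 points (line labels permuted over same-numbered differences, exact permutation p = 0.00952 and Benjamini-Hochberg 0.0114 for each). No label ties a treated to an untreated replicate of the same number, so these p-values rest on an assumed pairing. The change in the VH region share was 7.07 points in the CTCF degron line and -0.378, -0.224 and 0.0719 points in the control lines (exact permutation, Benjamini-Hochberg 0.0114 for each difference). On other chromosomes without Igk the groups were less separate. There the OsTIR1-only line with IAA had rates of 0.109%, 0.0760%, 0.298% and 0.460% in replicates 1 to 4. The last lay within the 0.327 to 0.887% of the treated CTCF degron line.

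**Figure D5:**
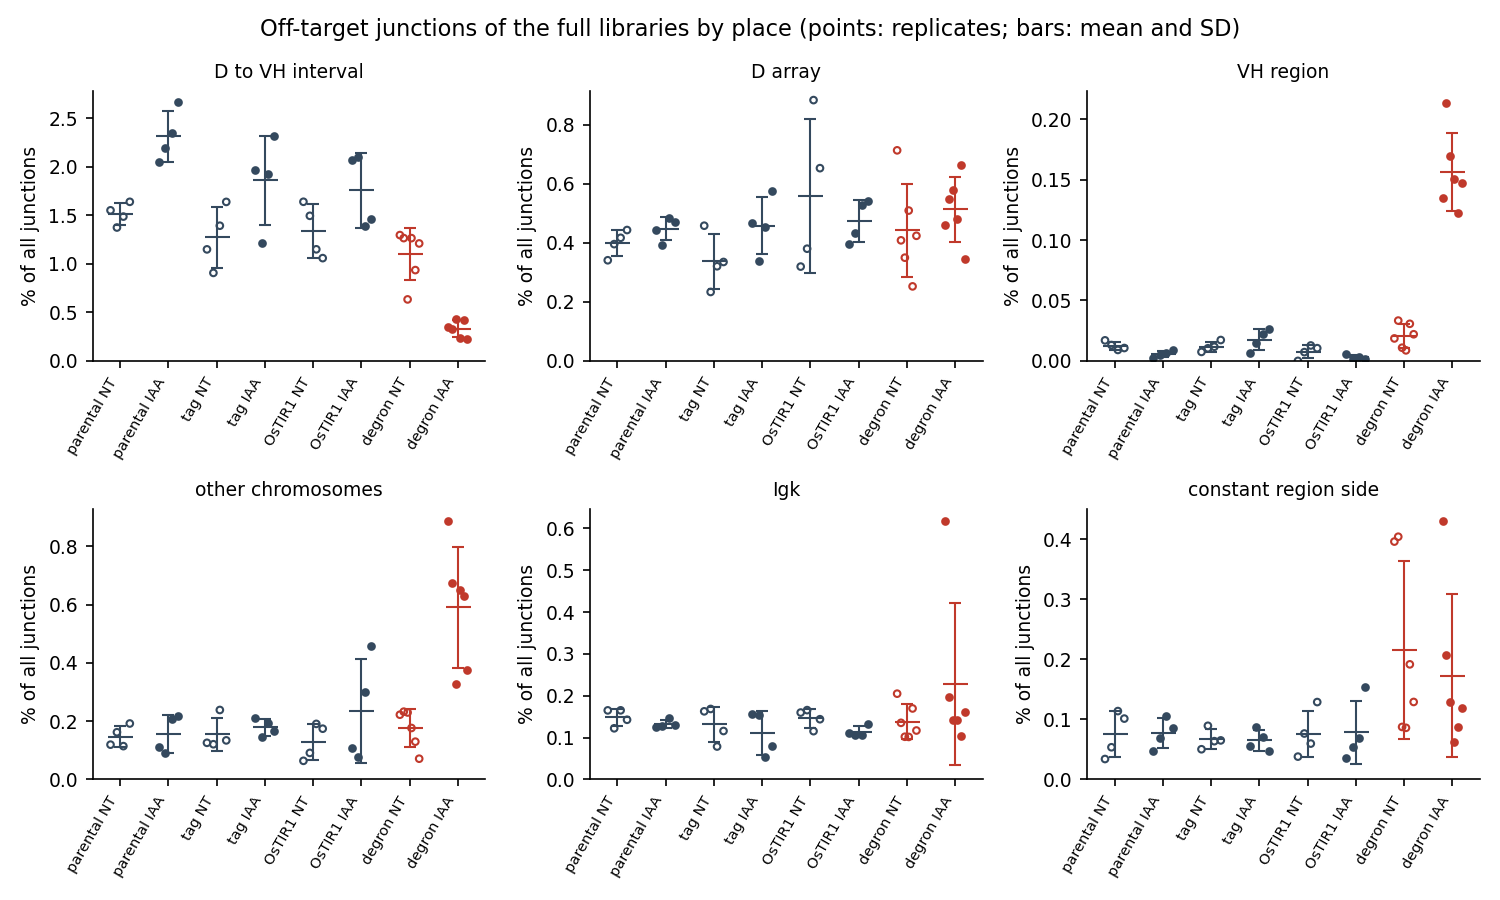
Off-target junctions by place as percent of all junctions in the full libraries, for 4 lines without (NT, open) and with IAA (filled); points are replicates, bars are mean and SD. Only the treated CTCF degron line, at 0.332% in the D to VH interval and 0.156% in the VH region, is clear of all other groups in those 2 panels.

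Rates at single sites showed which list differences were shared with the untreated CTCF degron line. The site 1008 bp above Ighd1-1 held 101 ± 34.2 of 100000 junctions with IAA, 479 ± 146 without and 948 ± 104 in the parental line with IAA. Both differences passed (exact permutation, Benjamini-Hochberg 0.0183 over 46 tests), and the untreated CTCF degron line lay between the others. Of the 10 sites above Ighd1-1, all had a lower mean with IAA than without, by 1.52-fold to 5.83-fold, and 9 passed, where 60.9% of the 23 sites were called. Against the parental line all 10 were lower, where 73.9% were called. The 23 sites were chosen on list counts drawn from these same treated libraries. A site that reached the minimum through only the CTCF degron or only the parental lists had to differ between those groups. The comparison with the parental line therefore supports nothing further. The same holds against untreated cells for a site that reached the minimum only through the CTCF degron lists, since those lists come from the treated libraries. The D array site at 42.1 kb was such a site. It held 17.3 ± 8.86 without IAA and 53.4 ± 14.7 with it (exact permutation, Benjamini-Hochberg 0.0183), and 12.3 ± 5.01 in the parental line. The constant region site was not told apart between treated and untreated cells. It held 93.9 ± 89.4 with IAA and 96.6 ± 66.3 without (exact permutation p = 0.935), a spread wide enough to hide a change. In the parental line it held 14.5 ± 7.03 (exact permutation, Benjamini-Hochberg 0.0183). The Ighd6-1 site held 75.6 ± 17.0 with IAA, 90.4 ± 68.2 without and 69.4 ± 15.6 in the parental line, with no difference past the threshold.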

How the data were processed

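The deposited files hold 1 line per junction, with prey chromosome, position and strand, and the alignment bounds of bait and prey; there is no column of counts, and the coordinates were used as the authors deposited them, a unit of the kind other. Per the submitters' processing notes the tool was Bowtie2 and the build mm9; per the labels, reads were placed on mm9 with a substitute Igh sequence that was not used here. Versions and filters are not given in the sources used here. Positions of a and b libraries were shifted by 3 bases to 1 frame. Of 8243 junctions in the hybrid part, 74.7% were placed in mm9 with blastn 2.17.0 (at least 40 aligned bases and 95% identity), and only these entered the CAC counts. A CAC before or at the break was counted on the strand opposite to the prey read. At the prey start it was counted on the read's own strand. Gene names come from the mm9 annotation.

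Groups came from titles. Shares per list were compared by two-sided exact permutation tests (scipy 1.17.1) with Benjamini-Hochberg adjustment per family. For bins and sites limma 3.58.1 was run under R 4.3.3 and checked on simulated data. Named bins had the largest changes among those called with no overlap of lists; named sites had the most lists, with ties by total. Other sites are named where a result turns on them. Full-library values average the a and b libraries of a replicate, with 21416 to 35133 junctions per CTCF degron replicate with IAA, 26375 to 58885 without, and 42463 to 194109 per parental replicate with IAA. The members, lists of measures and named items were chosen with earlier results of these data known. Alternatives were counting identical junctions once, other denominators, bin sizes, minimums and pseudocounts, voom, a replicate block, and leaving out each list. The Rad21 degron and bone marrow samples were not analysed here.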

Additional observations from a re-analysis of the deposited data

Results flagged for a closer look

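About 1 in 20 groups is expected to hold a sample this far from the rest, and these came from many measures. Among the CTCF degron lists, list 1 stood apart at Igk, with 21.0% of its junctions there, and at 3 Igk sites, with 11 junctions at Igkj5, 6 at Igkj1 and 9 at Igkj4. List 6 had the highest share of junctions with a CAC within 10 bp before the break, 61.6%. Among the parental lists, list 1 had 0 junctions in the VH region, where the other 3 had 2 each, and a median log10 distance of 4.81, a gap of about 1 base from the others. List 2 had the lowest constant region side share, 0.964%. List 3 had the highest microhomology share, 9.16%. One parental list had a CAC exactly at the break in 24.4% of junctions, below the other 3. In the full libraries, 1 parental replicate with IAA had an Igk share of 3.61% of off-target junctions, below the rest.

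The effect of IAA on the off-target junctions of the full libraries differed between the CTCF degron line and the control lines in the measures below, tested by permuting line labels over differences paired by number alone. For the D to VH interval share the gap was -43.4 points against the parental line, -41.8 against the OsTIR1-only line and -40.2 against the tag-only line. For the VH region share it was 7.44, 7.29 and 6.99 points in that order. For other chromosomes without Igk it was 21.4, 16.7 and 21.0 points. For the total off-target rate it was -0.916 points against the parental line and -0.788 against the tag-only line, while against the OsTIR1-only line it was -0.483 and did not pass (exact permutation, Benjamini-Hochberg 0.0667).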

How the results depend on the processing

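Of 280 alternative values of the main results, 250 kept both direction and side of the threshold, or for counts stayed within 1.5 times. Leaving out 1 list or replicate left every called main result called; the plus orientation share ran from -1.44 to -0.94 points and passed without CTCF degron list 4, and the off-target rate against untreated cells, not called, ran from -0.258 to 0.0812 points. The Igk share lost its call without parental list 1, 2 or 4. The near-segment share, not called at 0.843 points, ran from -0.289 to 1.73. Counting each position once reversed the D array difference (-0.508 points) and ended the calls for the constant region side (1.47), the median distance (-0.0070 on the log10 scale), blunt joints (1.09) and the CAC exactly at the break (-4.55); by construction it counts the recurrent parental sites fewer times. It also took the Igk difference to 2.66, not called, and turned 3 uncalled values, the JH side (-0.236), near-segment junctions (-4.16) and a CAC at the prey start (-0.810). Without junctions near a segment the JH side was -0.0828. In the full libraries, counting each position once gives the off-target share of distinct positions, which is another measure than the rate. It differed by -7.40 points from the untreated line and by -19.2 from the parental line, both past the threshold. Prey alignments of at least 60 bases gave 3.60 for the constant region side, no longer past it, and -1.33 for plus orientation, past it; the cause was not tested. With no minimum, 16 of 96 bins passed in place of 9 of 12.

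List numbers do not pair the samples: deviations of same-numbered lists correlated at -0.0952 to 0.0857 over 12 bins. With a replicate block, 4 pairs cannot go below an exact sign-flip p of 0.125, so no list share could pass. The paired differences were 6.75 (VH region), 2.47 (VH proximal), 11.99 (D array), -58.2 (D to VH interval), 5.00 (constant region side), 32.8 (all other chromosomes), -0.0139 (log10 median distance), 25.1 (microhomology), 3.31 (blunt), -28.4 (insertion), -13.1 (exact CAC), and, turned in sign but not called before, -0.120 (JH side) and -0.482 (near-segment). The block left 7 bins. In the full libraries 6 pairs gave 7.07 points for the VH region and -35.6 for the D to VH interval share, each with exact p = 0.0312 and Benjamini-Hochberg 0.254. With lists of 415, a count of 0 allows a share of up to 0.723%, for counting error only.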
